A study of Homo sapiens with 2 samples.

Results

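Gene expression was compared between HT29 cells, a line established from a human colon cancer, after transient transfection with a control siRNA (siControl) or with an siRNA against the secreted lectin gene *REG4* (siREG4). A single array was run for each group, so no difference below has a replicate check or a test, and their number limits how precise any value can be. The titles and source names give REG4 as the target, but the treatment label of the knockdown sample says GATA6, and since the annotation names no *REG4* probe set, the knockdown itself was not analysed here. The genes described here are those of the respiratory chain, its assembly factors and the mitochondrial protein import machinery. They were chosen by gene symbol (the COX, UQCR, CYC1, CYCS, SDH, ATP5, NDUF, TIMM, TOMM, COA and SCO names), with earlier results of these data known. Out of 14812 named genes, 74 genes with 77 probe sets matched.

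The respiratory chain passes electrons from NADH and succinate through complexes I and II, complex III, cytochrome c and complex IV to oxygen, and the proton gradient that this builds drives ATP synthase. Most subunits are encoded in the nucleus, made in the cytosol and brought in through the TOM complex of the outer membrane and the TIM complexes of the inner membrane. Complex IV needs copper and haem, which dedicated assembly factors insert. In the colon, butyrate oxidised by mitochondria is a main fuel of the epithelium.

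The named probe sets covered this machinery unevenly, and a gene is called measured here if it had one. Of 44629 probe sets, 28794 had no gene name, and whether they read the missing genes was not tested. All 16 complex IV subunit genes of the RefSeq table that the symbol pattern takes, all 10 TOM genes and 14 of 16 TIMM genes, *TIMMDC1* included, were measured. Of 11 complex III and cytochrome c genes 6 were measured, and of 20 ATP synthase genes 3. None of the 38 complex I subunit entries and none of the 4 complex II subunit genes had a named probe set, so these complexes are represented here by their assembly factors only. In total 70 of 149 protein-coding genes of the pattern were measured, together with 1 pseudogene and 3 non-coding RNAs, and the other 79 were not analysed here.

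Each value is the authors' log value, taken here as log2 and centred per probe set, so the array pair holds mirror values and only their difference carries information. Levels were not kept, so no gene can be called expressed or silent, no gene can be ranked above another in abundance, and colon epithelial identity could not be checked by level. In bulk RNA, fewer cells with a transcript and less of it per cell cannot be told apart. As a gauge of array background, 84 keratin-associated protein (*KRTAP*) genes were used, structural genes of hair whose transcripts should be missing from colon epithelium. They had differences between -0.22 and 0.30, with an SD of 0.09 across genes. Since these genes are taken as silent, their range does not measure the noise of expressed genes or the variation between transfections. Of the colon epithelial markers 6 were measured, with a median of -0.05. *KRT20*, a keratin of differentiated colonocytes, was higher past 1.4-fold (0.54), *KRT18* was at 0.0042, and the other 4 were below 0, *CDX2* at -0.26, *KRT8* at -0.08, *VIL1* at -0.05 and *EPCAM* at -0.05. None of the 6 fibroblast and endothelial or 3 immune markers was past 1.4-fold (0 genes), and the largest difference among them was that of the endothelial receptor *ENG* (-0.40).

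Most respiratory chain and import genes had lower values in the siREG4 array, by small amounts. Of the 74 genes, 51 (68.9%) were below 0, 20 above and 3 at exactly 0, and the median difference, siREG4 minus siControl, was -0.10 on the log2 scale. Over all 14812 named genes the median was 0.0 and 48.7% lay below 0. A 1.4-fold decrease, the threshold in the methods of the study, was passed by 5 of the 74 genes (6.76%), against 1.67% of all named genes and 2.04% of protein-coding genes. No member was higher past 1.4-fold (0 genes), where the share over all named genes was 1.51%. Because most differences were small, a 1.2-fold threshold was counted as well. It was passed by 14 lower members (18.9%), against 7.04% of named and 8.18% of protein-coding genes, and by 1 higher member (1.35%), against 5.95% of named genes. The same 14 lower members lay below the lowest *KRTAP* gene, as did 9.20% of all named genes and 25 of 73 mitochondrial ribosomal protein genes. Of the 14, *TOMM40* is the mean of 2 probe sets, and the first alone (-0.18) would miss both limits, the other (-0.46) neither. The shares over all genes include silent genes, which could not be set aside without levels.

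**Figure D1:**
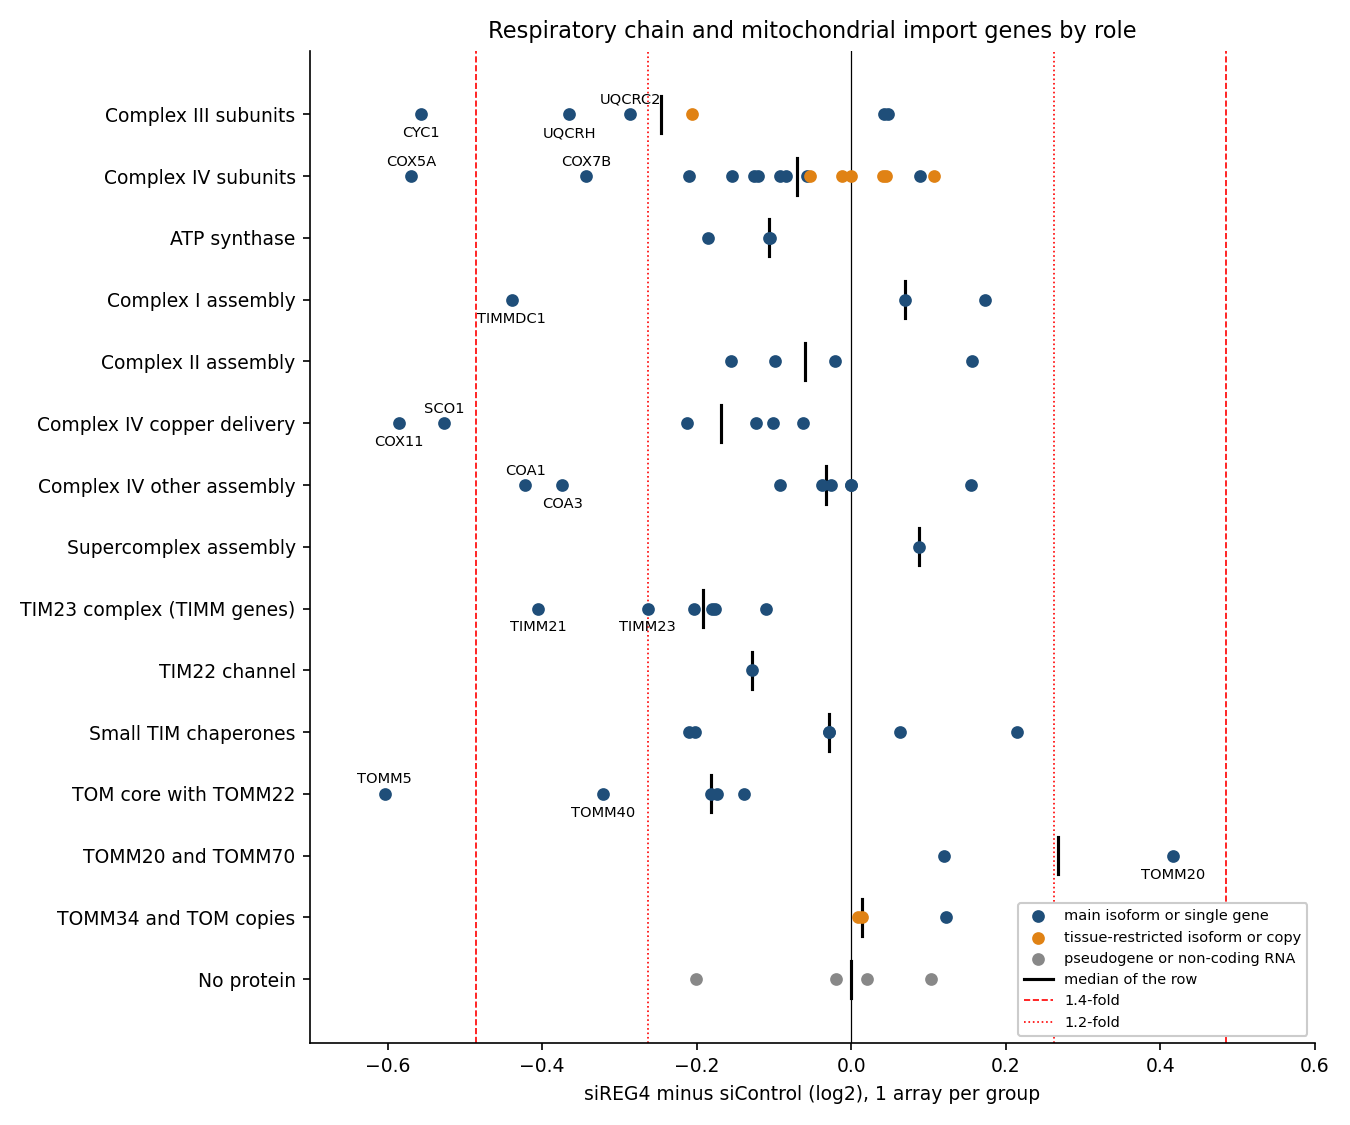
Difference between the siREG4 and siControl arrays (log2, x axis) for each of the 74 genes, in rows by role. Points are genes, black bars are row medians, and red lines mark 1.2-fold and 1.4-fold. The 6 TIMM genes of the TIM23 complex and the 5 TOM core genes, the receptor *TOMM22* among them, lie below 0, *TOMM20* and *TOMM70* lie above it, and 5 genes pass the 1.4-fold line. Of these TIM23 and TOM genes, only *TIMM21*, *TIMM23*, *TOMM5*, *TOMM40* and *TOMM20* lie beyond the *KRTAP* range.

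Upstream sequences of 4 genes are shown to set lower members beside the highest member: *COX5A* and *SCO1*, both lower past 1.4-fold, *UQCRH*, lower past 1.2-fold, and *TOMM20*, the highest. *TOMM5*, *COX11* and *CYC1*, the other members lower past 1.4-fold, were not matched in the promoter table. The sequences come from RefSeq (GRCh38.p14), end at the base before the start site and run 5′ to 3′ on the gene's strand, and capitals mark a match to the ETS core CCGGAAG or its reverse complement CTTCCGG. ETS factors such as GABP are known regulators of nuclear genes for mitochondrial proteins. The stretch is chr15:74938074-74938173 on the minus strand for *COX5A*, chr17:10697534-10697593 on the minus strand for *SCO1*, chr1:46303617-46303697 on the plus strand for *UQCRH* and chr1:235128838-235128937 on the minus strand for *TOMM20*.
COX5A: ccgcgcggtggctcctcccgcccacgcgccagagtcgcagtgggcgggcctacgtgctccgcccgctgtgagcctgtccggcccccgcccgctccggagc
SCO1: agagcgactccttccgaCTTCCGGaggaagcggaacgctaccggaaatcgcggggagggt
UQCRH: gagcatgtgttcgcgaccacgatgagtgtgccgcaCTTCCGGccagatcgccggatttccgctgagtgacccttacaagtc
TOMM20: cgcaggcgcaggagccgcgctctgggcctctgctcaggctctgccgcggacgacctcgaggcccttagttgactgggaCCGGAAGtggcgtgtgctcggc

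In complex III, which passes electrons from ubiquinol to cytochrome c, the measured subunits were either lower or near 0. *CYC1*, the haem-carrying cytochrome c1, was at 0.28 in siControl and -0.28 in siREG4, a 1.47-fold decrease (-0.56). *UQCRH*, the hinge protein that contacts cytochrome c, was at 0.18 and -0.18, 1.29-fold lower (-0.36). *UQCRC2*, a core subunit, was at 0.14 and -0.14, 1.22-fold lower (-0.29). The other core subunit, *UQCRC1*, differed by 0.04, and *UQCRB*, a ubiquinone-binding subunit, by 0.05, so the core subunits did not move alike. *UQCRHL*, a gene copy of *UQCRH*, was at -0.21, and probes can read both copies. The median over the 6 genes was -0.25. The pseudogene *UQCRBP1* differed by 0.10, near *UQCRB*.

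In complex IV, which reduces oxygen, 1 of 16 subunit genes was lower past 1.4-fold. *COX5A*, a nuclear-encoded matrix subunit, was at 0.28 in siControl and -0.28 in siREG4, 1.48-fold lower (-0.57). *COX7B*, a small membrane subunit, was at 0.17 and -0.17, 1.27-fold lower (-0.34). The other 8 genes that are the widely expressed form or the single form of their subunit ranged from -0.21 for *COX7C* to 0.09 for *COX7A2*. Between these lay *COX4I1* (-0.15), *COX6B1* (-0.13), *COX5B* (-0.12), *COX8A* (-0.09), *COX6C* (-0.08) and *COX6A1* (-0.06). Thus 9 of the 10 lay below 0, but only *COX5A* and *COX7B* lay beyond the *KRTAP* range. RefSeq lists many pseudogenes named after these subunits, 18 for *COX6C*, 8 for *COX5B*, 4 for *COX7B* and 2 for *COX5A*, and signal shared with them was not tested.

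**Figure D2:**
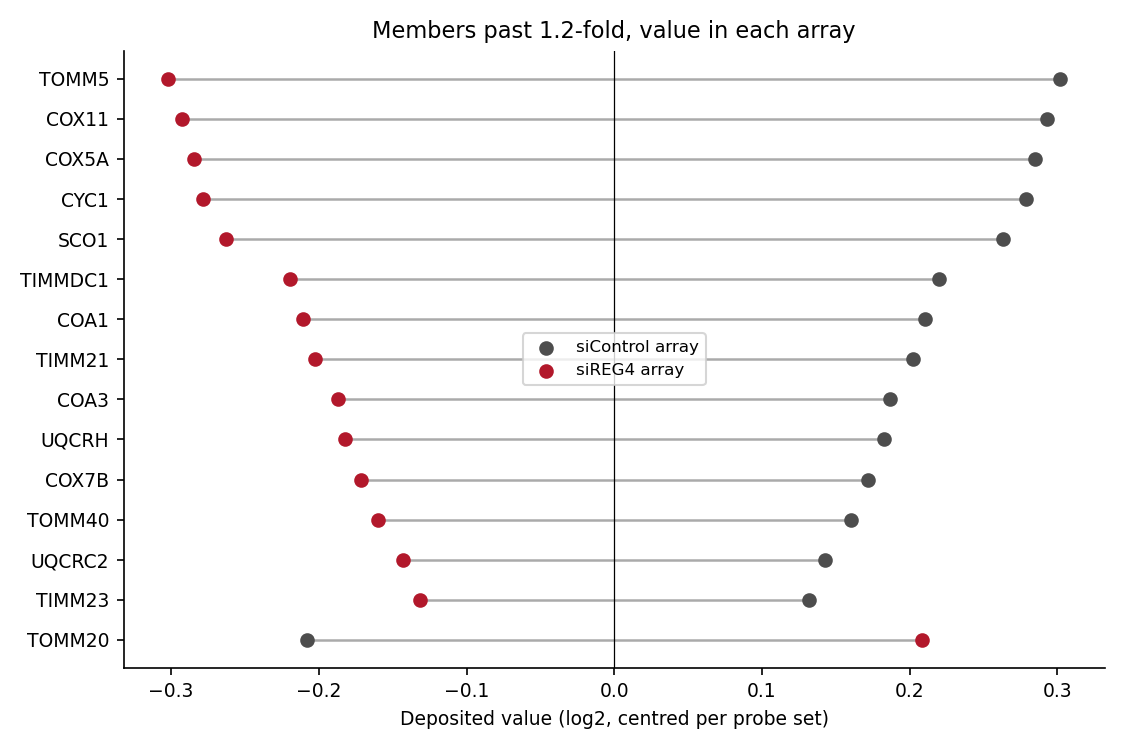
Deposited value in each array (log2, centred per probe set, x axis) for the 15 members past 1.2-fold. Grey points are the siControl array and red points the siREG4 array. *TOMM20* is the only one of the 15 with the higher value in siREG4.

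Several subunits have a second form limited to muscle, lung, testis or other tissues, and these forms offered a comparison within gene families. The 6 restricted complex IV forms lay close to 0, from -0.05 for *COX6A2*, the muscle form, to 0.11 for *COX4I2*, the lung form. *COX6B2* and *COX8C*, forms known from testis, were listed at 0 and at -0.01, *COX7A1*, the muscle form, was at 0.04, and *COX7B2* at 0.05. The TOM gene copies *TOMM20L* and *TOMM40L* were at 0.01 each. In all 9 widely expressed and restricted pairs, *UQCRH* and *UQCRHL* included, the widely expressed gene had the larger difference in size. The median size was 0.15 for the widely expressed genes and 0.04 for their partners. The margin was narrow for *COX6A1* and *COX6A2* (-0.06 and -0.05), which is less than the *KRTAP* spread. *COX6A1* is the mean of 2 probe sets (-0.01 and -0.10), and by the first alone it would be smaller in size than *COX6A2*. The pairs were picked after their values were seen. Whether the restricted forms were expressed at all in these cells was not tested, since no levels were kept.

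**Figure D3:**
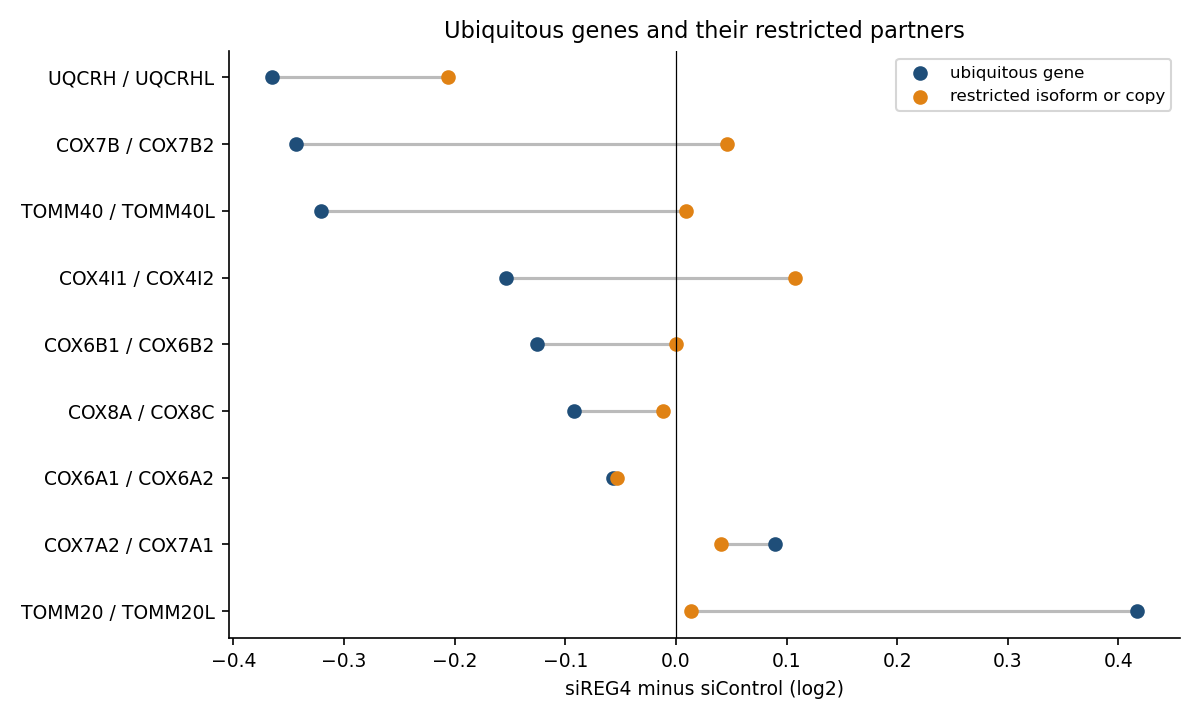
Difference between arrays (log2, x axis) for 9 pairs of a widely expressed gene (blue) and its tissue-restricted form or gene copy (orange). The orange points lie between -0.21 and 0.11, and in each pair the blue point is farther from 0.

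The ATP synthase genes measured were 2 small membrane subunits and the inhibitor of the enzyme. *ATP5MK* was at 0.09 in siControl and -0.09 in siREG4, 1.14-fold lower (-0.18), and *ATP5MJ* differed by -0.10. *ATP5IF1*, the inhibitory factor that blocks ATP hydrolysis when the membrane potential falls, differed by -0.11. All 3 were below 0, and none lay beyond the *KRTAP* range.

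Assembly factors held 2 of the 5 genes lower past 1.4-fold. Both deliver copper to complex IV. *COX11*, which serves the copper site of the COX1 subunit, was at 0.29 in siControl and -0.29 in siREG4, 1.5-fold lower (-0.59). *SCO1*, which serves the copper site of COX2, was at 0.26 and -0.26, 1.44-fold lower (-0.53), and was the member just inside the threshold. The related copper chaperone *SCO2* differed by only -0.10. *COX17*, which hands copper to COX11 and the SCO proteins, was at -0.06, *COX19* at -0.12 and *COA6*, another factor of the COX2 copper site, at -0.21. All 6 copper delivery genes were thus below 0, with a median of -0.17, and 2 of the 6 exceeded the *KRTAP* range.

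Factors for the early steps of complex IV differed less evenly. *COA3*, which stabilises newly made COX1, was at 0.19 in siControl and -0.19 in siREG4, 1.30-fold lower (-0.37). *COA1*, which acts on the same intermediate, was at 0.21 and -0.21, 1.34-fold lower (-0.42). *COX14*, the partner of COA3, was at -0.09. The COX2 insertion factors *COX18* and *COX20* were listed at 0 and at -0.03. *COA7*, *COA5* and *COA4* were at -0.04, 0 and 0.15. The supercomplex factor *COX7A2L*, which joins complexes III and IV, differed by 0.09.

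Complex I was represented by 3 assembly factors, which went different ways. *TIMMDC1*, a membrane arm assembly factor that carries a TIM-like name, was at 0.22 in siControl and -0.22 in siREG4, 1.36-fold lower (-0.44), and was the first member outside the 1.4-fold threshold. *NDUFAF8* was at 0.07 and *NDUFAF7*, a methyltransferase that modifies a complex I subunit, at 0.17. The 4 complex II assembly factors lay between -0.16 and 0.16. *SDHAF4* was at -0.16, *SDHAF2*, which helps attach FAD to SDHA, at -0.10, *SDHAF3* at -0.02 and *SDHAF1*, which helps insert iron-sulphur clusters into SDHB, at 0.16. Over all 22 assembly factors the median was -0.08, with 15 below 0, 5 above and 2 at 0.

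Both the lowest and the highest of the 74 genes encode subunits of the TOM complex. *TOMM5*, a small subunit of the TOM channel, was at 0.30 in siControl and -0.30 in siREG4 1.52-fold lower (-0.60), the lowest member. *TOMM40*, the channel itself, was 1.25-fold lower as the mean of its probe sets (-0.32), which differed from each other (-0.46 and -0.18). *TOMM6*, *TOMM22*, which is both a receptor and a part of the core complex, and *TOMM7* were at -0.18, -0.17 and -0.14, so all 5 core complex genes were below 0, with a median of -0.18. *TOMM20*, the receptor for presequences, was at -0.21 in siControl and 0.21 in siREG4, 1.33-fold higher (0.42), and was the only member higher past 1.2-fold. *TOMM70*, the receptor for carrier proteins, was at 0.12, and *TOMM34*, a cytosolic protein that binds precursors, also at 0.12. *TOMM70* and *TOMM34* stayed within the *KRTAP* range, so the higher direction rests on *TOMM20*. *TOMM6*, *TOMM22* and *TOMM7* stayed within that range too, as did 1 probe set of *TOMM40* (-0.18). Among the core genes only *TOMM5* and the mean of *TOMM40* thus lay beyond it. RefSeq lists 4 pseudogenes named after *TOMM20*, 4 after *TOMM40* and 1 after *TOMM5*.

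The 6 measured genes with a TIMM symbol that belong to the TIM23 complex, the route for proteins with a presequence, were below 0, with a median of -0.19. *HSPA9*, the chaperone of its motor, falls outside the symbol pattern and was at 0.11. *TIMM21*, a subunit that also binds complex IV assembly intermediates, was at 0.20 in siControl and -0.20 in siREG4, 1.32-fold lower (-0.41). *TIMM23*, the central membrane subunit, was at 0.13 and -0.13 (a difference of -0.263), just inside the 1.2-fold threshold, which *COA6* (-0.21) was the first to miss. With quantile normalization of the arrays *TIMM23* was at -0.256, outside the threshold, which left 13 lower members. *TIMM44*, which tethers the motor, was at -0.20, the receptor *TIMM50* at -0.18, and the alternative subunits *TIMM17B* and *TIMM17A* at -0.18 and -0.11. These stayed within the *KRTAP* range, so of the TIMM genes of this complex only *TIMM21* and *TIMM23* lay beyond it. *TIMM22*, the channel for carrier proteins, was at -0.13.

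The small TIM proteins, chaperones that escort membrane proteins across the space between the membranes, did not share 1 direction. *TIMM9* and *TIMM10*, which form a complex with each other, were at -0.21 and -0.20. *TIMM13* and *TIMM8B* were each at -0.03 and *TIMM8A*, mutated in a deafness-dystonia syndrome, was at 0.06. *TIMM10B*, which sits on the TIM22 complex, was at 0.21. None of the 6 passed 1.2-fold in either direction (0 genes). The TIM genes as a whole had a median of -0.18 over 13 genes, with 11 below 0, and the TOM genes a median of -0.06 over 10 genes, with 5 below 0. Without the copies *TOMM20L* and *TOMM40L* the TOM median was -0.16, and by the mean the TIM genes were at -0.13 and all 10 TOM genes at -0.0735.

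For comparison, 73 mitochondrial ribosomal protein genes, whose products make the subunits encoded in mitochondrial DNA, had a median of -0.17, and 3 of them (4.11%) were lower past 1.4-fold and 22 (30.1%) past 1.2-fold. By the median and by the share lower past 1.2-fold (18.9%), the respiratory chain and import genes lay between this group and the protein-coding genes as a whole. Their share lower past 1.4-fold (6.76%) was above both, but against the mitochondrial ribosomal group this is only 5 genes against 3. For the 50 genes of the cytosolic ribosome the median was near 0 (-0.0021), and 0 of them passed 1.2-fold in either direction. Genes of DNA replication lay further below 0. Of 17 measured genes of 29 listed, all 17 were below 0, with a median of -0.56. Of these, 9 (52.9%) were lower past 1.4-fold, against 1.67% of all named genes. The helicase subunit *GINS1* (-1.39) and the thymidylate synthase *TYMS* (-1.23) were the lowest, and the dUTPase *DUT* (-0.10) and *GINS3* (-0.02) the highest. The part of cell division in the mitochondrial differences was not tested.

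**Figure D4:**
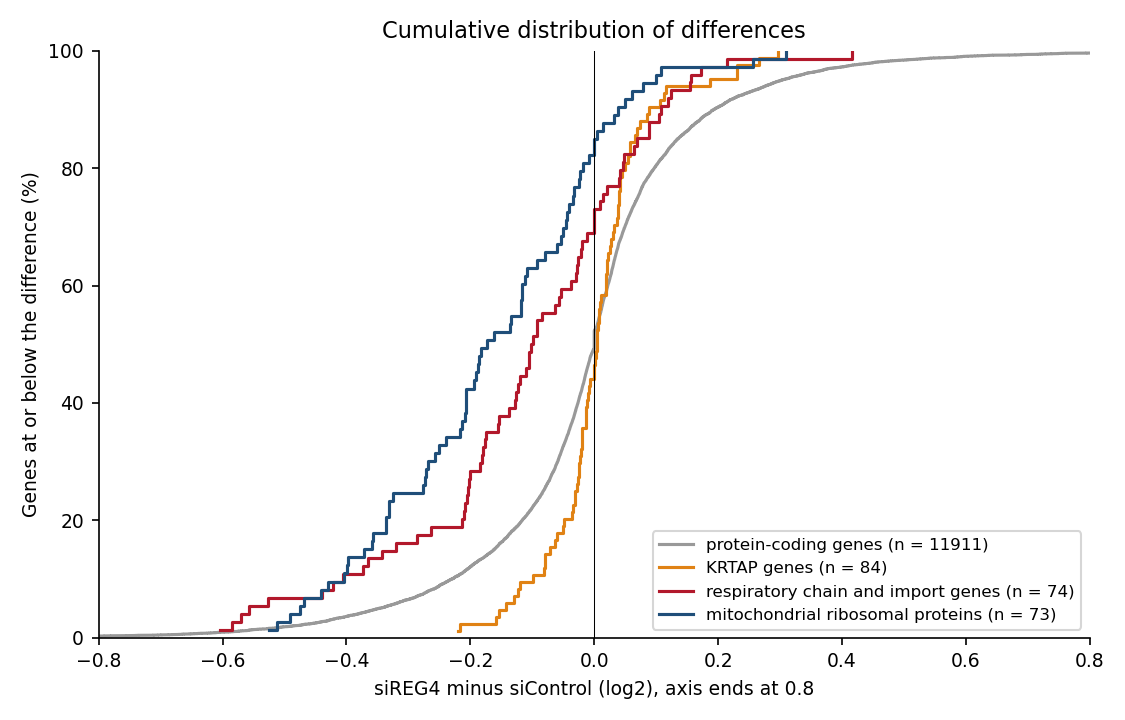
Cumulative share of genes (%, y axis) at or below each difference between arrays (log2, x axis, ending at 0.8) for protein-coding genes, *KRTAP* genes, respiratory chain and import genes, and mitochondrial ribosomal proteins. The medians are -0.10 for the respiratory chain and import genes and -0.17 for the mitochondrial ribosomal proteins, against 0.0 for protein-coding genes, which also reach below the lowest member (-0.60).

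Other mitochondrial gene lists were described in the same way. Of 24 measured assembly factors outside the symbol pattern (29 listed), 16 were below 0, with a median of -0.10, and 1 was lower past 1.4-fold, *CMC2* (-0.50), known as a complex IV assembly protein. *SLIRP*, which stabilises mitochondrial mRNAs, was at -0.43, and *HCCS*, which attaches haem to cytochromes c and c1, was at 0.32, the highest, ahead of *UQCC1* (0.16). Past 1.2-fold, 9 were lower (37.5%) and 1 was higher (4.17%), against 7.04% and 5.95% of all named genes. Past 1.4-fold, 1.67% of all named genes were lower and 1.51% higher. All 8 measured genes of cristae and the MICOS complex were below 0 (median -0.11), from *MICOS13* (-0.28) and *CHCHD3* (-0.16) to *APOO* (-0.05) and *CHCHD6* (-0.02), with 0 past 1.4-fold.

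The remaining import machinery, with 13 of 23 listed genes measured, had a median of -0.01. *SAMM50*, which inserts proteins into the outer membrane, was at -0.28 and the peptidase *MIPEP* at -0.21, while *HSPA9* was at 0.11 and the processing peptidase subunit *PMPCB* at 0.20. Among all named genes 1.51% were higher past 1.4-fold. Of 10 measured genes of pyruvate dehydrogenase and the TCA cycle (18 listed), 1 (10%) was past 1.4-fold, and it was higher. This was *OGDH* (0.53), a subunit of the oxoglutarate dehydrogenase complex, followed by *CS* (0.14), the citrate synthase. *DLAT* and *PDHB*, subunits of pyruvate dehydrogenase, were the lowest (-0.38 and -0.36), and the median was -0.07. Glycolysis genes had a median of -0.05 over 9 genes (19 listed), with 0 past 1.2-fold in either direction, from *LDHB* (-0.19) and *GPI* (-0.17) to *TPI1* (-0.01) and *HK1* (0.11). Among regulators of mitochondrial biogenesis and genome maintenance, 6 of 18 listed genes were measured, and their median was -0.16. *YY1*, a zinc finger factor that binds many promoters of mitochondrial genes, was 1.42-fold lower (-0.51), and the helicase *TWNK* was at -0.25. *ESRRA* (-0.04) and *MTERF1* (0.04) were the highest, and *NRF1*, a main regulator of respiratory genes, was at -0.08.

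Promoter sequence was then set beside the differences. Promoters of 63 of the 74 genes were in the RefSeq table, each from 250 bases before to 50 after the first listed start site. The ETS core CCGGAAG, searched on both strands, was in 25 of them (39.7%), against 10.7% of 27305 promoters of all genes. The NRF1 core GCATGCGC was in 9 (14.3%, against 3.27%) and the YY1 core AAGATGGCG in 5 (7.94%, against 1.85%). The promoters of all genes include those of non-coding RNAs, and no share over protein-coding genes alone was computed. The 25 genes with the ETS core had a median difference of -0.12 and the 38 without it -0.10, but 3 of the 5 members lower past 1.4-fold are missing from these 63. *SCO1*, *UQCRH* and *TOMM20* above each hold 1 match, 43, 46 and 22 bases before the start site, although *TOMM20* was the highest member, and *COX5A* holds none of the 3 motifs in its window. Past 1.2-fold, 5 of the 25 genes with the ETS core were lower, and 6 of the 38 without it. The 9 genes with the NRF1 core had a median of -0.06, and 0 of them were lower past 1.2-fold, against 11 of the 54 without it. The 5 with the YY1 core had a median of 0.01, and 0 of them were lower past 1.2-fold, against 11 of 58. These 5 include the non-coding RNAs *COX10-DT* and *NDUFA6-DT* and the gene copy *TOMM40L*. A match of letters is a description and not a bound site.

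Some members share a start region with a gene on the opposite strand. Neighbours could be sought only for the 63 members in the RefSeq promoter table, which lacks *TOMM5*, *COX11* and *CYC1*. A second start lay within 1000 bases on the other strand for 22 of these members, and 13 of these neighbours were measured. *SCO1* (-0.53) starts 61 bases from *ADPRM*, which differed by 0.04, and the printed *SCO1* sequence is the whole stretch between them. *UQCRH* (-0.36) starts 82 bases from *LRRC41* (0.10), and its printed sequence is likewise the stretch between the starts. *COA3* (-0.37) and *CNTD1* (0.05) start 157 bases apart, and *TIMM21* (-0.41) and *FBXO15* (-0.0016) 689 bases apart.

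Elsewhere a lower neighbour stood beside a member nearer 0. *COX4I1* (-0.15) starts 151 bases from *EMC8* (-0.51), a subunit of the membrane protein complex of the endoplasmic reticulum. *COA4* (0.15) starts 153 bases from *PAAF1* (-0.51), a proteasome assembly factor. In 8 of the 13 pairs the genes had opposite signs and in 4 the same sign, with *COA5* at 0 in the remaining pair. In no pair were both genes lower past 1.2-fold (0 pairs). Among the paired members only *SCO1*, *TIMM21*, *COA3* and *UQCRH* were lower past 1.2-fold, as were 7.04% of all named genes. With so few, the absence of such a pair says little. Of the 13 neighbours 2 were lower past 1.4-fold, *EMC8* and *PAAF1*, where the share over all named genes was 1.67%. The non-coding RNAs among the members, *COX10-DT* (-0.20), *NDUFB2-AS1* (-0.02) and *NDUFA6-DT* (0.02), start beside *COX10*, *NDUFB2* and *NDUFA6*, which had no named probe set.

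**Figure D5:**
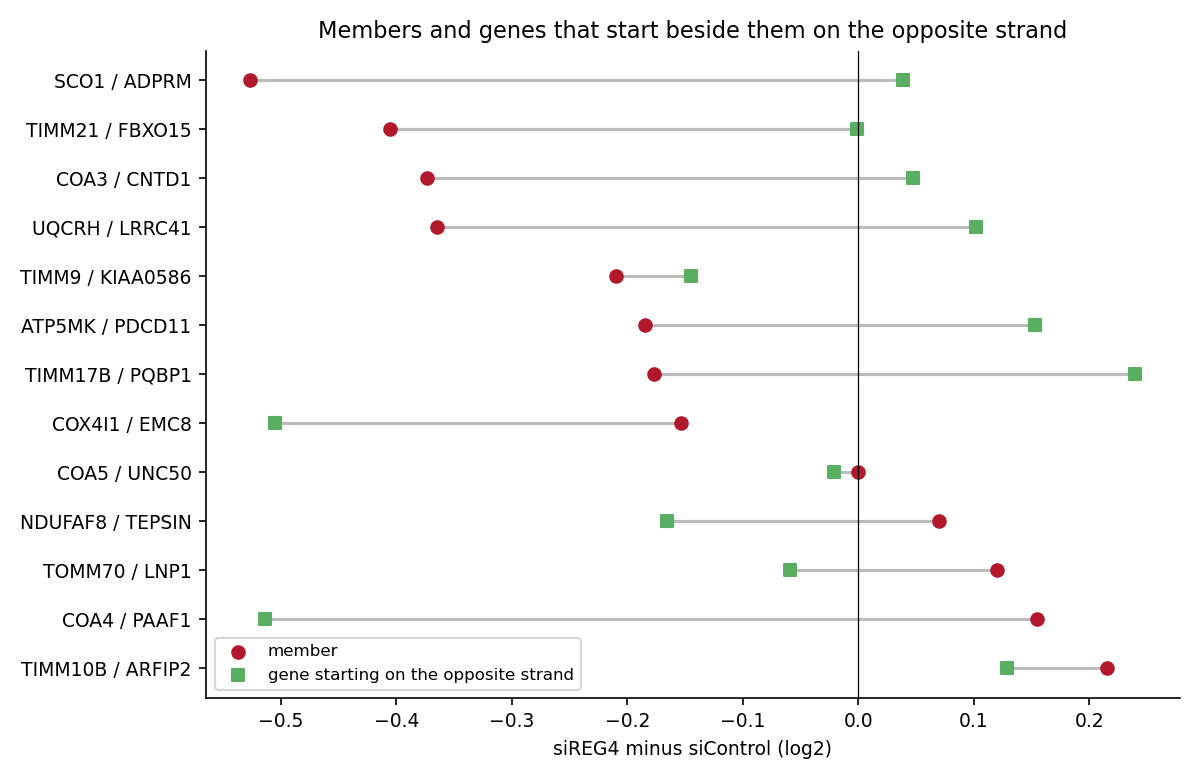
Difference between arrays (log2, x axis) for 13 members (red circles) and the gene that starts within 1000 bases on the opposite strand (green squares). The 4 members at the top lie between -0.53 and -0.36, and their neighbours between -0.0016 and 0.10.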

How the data were processed

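Total RNA of transfected HT29 cells was prepared for Affymetrix Human Gene 2.0 ST arrays with the WT PLUS reagents, and the authors evaluated the arrays in GeneSpring 12.6.1. They deposited log2 values of 44629 probe sets, centred per probe set: both columns sum to 0 within 1e-06. Base 2 was assumed for the logarithm, since the sources used here name none. Background correction and the normalization between arrays are likewise not given there. Both arrays were at exactly 0 in 4.12% of probe sets. A platform annotation named 15835 probe sets, 1 gene each. Differences (siREG4 minus siControl) were averaged over the probe sets of a gene, which concerned 3 members. A single array per group gives no error of a difference, and no p-value was computed. The counting was tested on simulated data.

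Named are every member past 1.2-fold, the extremes of each group, all members of groups of 5 or fewer, and the 2 lowest and 2 highest genes of each other list. Other genes, among them the cell type markers named, *NRF1* and the neighbours, were picked after their values were seen, as were isoform pairs, role groups and motifs. Members and lists were chosen with earlier results of these data known. Alternatives were quantile normalization, median centring, the first or the median probe set per gene, other thresholds, protein-coding genes only and the mean. Python 3.11.15 with numpy 2.4.6, pandas 2.3.3 and matplotlib 3.10.9 was used.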

Additional observations from a re-analysis of the deposited data

How the results depend on the processing

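No paired analysis was possible because each group held 1 array. The 5 lower members past 1.4-fold were counted under each normalization, probe set rule and gene kind tried, and 0 were higher. All 5 are protein-coding with 1 probe set each, so the probe set and gene kind rules could not change them. The normalizations were applied to the deposited centred values, so the authors' own normalization between arrays was not tested. A 1.2-fold threshold gave 14 lower and 1 higher, and a 2-fold threshold 0 in either direction. By the mean in place of the median, the difference was -0.11 for all members, -0.22 for complex III, -0.10 for complex IV, -0.13 for ATP synthase, -0.12 for assembly factors, -0.13 for TIM genes and -0.0735 for TOM genes. Quantile normalization gave -0.24 for complex III and -0.17 for TIM genes. It moved no member by over 0.012 and changed the sign of none (0 of 74). Leaving out restricted forms, transcripts without a protein and members listed at 0, chosen after the data were seen, gave -0.12 for all members, -0.29 for complex III, -0.12 for complex IV and -0.16 for TOM genes. These follow from the genes left out. Medians of complex I and II subunits were not run, as none had a named probe set. Signal over background could not be judged from centred values.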
